A study of Mus musculus with 6 samples.

Results

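Transcripts of 10 genes of the bone morphogenetic protein (BMP) system were followed in osteoblasts of wild-type mice left unstimulated or stimulated with C5a, the fragment of complement component C5 that signals through its receptor C5aR1. The genes were listed by name according to their roles, namely the ligands Bmp2, Bmp3, Bmp4 and Bmp6, the receptors Bmpr1a and Bmpr2, and the antagonists and modulators Nog, Grem1, Chrd and Bmper. All 10 were measured, each by exactly 1 probeset (a group of short probes that reports a transcript), among 19938 genes named on the array. The cells came from long bones of 3 male WT mice of strain C57BL6/J aged 8 to 12 weeks, numbered 2, 4 and 5, were used at passage 2 to 3 and underwent osteogenic differentiation for 14 days. From each mouse 1 culture then spent 4 h in proliferation medium alone and 1 spent 4 h in that medium with recombinant murine C5a, which gives 2 groups of 3 arrays. No group carried a transgene or a deletion, and bone outgrowth cultures can hold cells other than osteoblasts.

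BMPs are secreted dimers of the TGF-β superfamily, first known for inducing bone. They bring together type I receptors such as BMPR1A and type II receptors such as BMPR2, which phosphorylate SMAD1, SMAD5 and SMAD9. Together with SMAD4 these enter the nucleus and act on target genes, among them the Id genes and the inhibitory SMADs. Noggin, gremlin and chordin bind the ligands outside the cell and keep them from the receptors, and BMPER, the vertebrate homologue of crossveinless-2, binds BMPs at the cell surface and can hinder or promote their signalling.

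Values are log2 intensities after the robust multiarray average (RMA), so that 1 unit is a doubling of signal, and the medians of the 6 arrays lay between 5.89 and 5.93. Differences are C5a minus unstimulated on this scale. The test was limma's, with the mouse as a block, and the Benjamini-Hochberg adjustment took in the 35556 probesets of the array. The methods of the study name a threshold of 0.05 for the p, which was not adjusted, and of 1.5 for the fold, read here as at least 1.5. Both thresholds are given throughout. Levels are not compared between genes, since each probeset has its own response, and no detection call was used, so that a value near the array median may hold little specific signal.

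Of the 10 genes, Bmp4 and Bmper were lower in C5a-stimulated osteoblasts at the thresholds of the methods and none was higher. Over all probesets 1.57% were called lower and 1.71% higher at these thresholds. Bmp4, a ligand that drives osteoblast differentiation, was 2.98-fold lower (95% interval 2.29-fold to 3.88-fold), and Bmper was 1.60-fold lower (95% interval 1.32-fold to 1.93-fold). After adjustment over all 35556 probesets none of the 10 passed, against 0.0112% of all probesets, or 4 in number. At an unadjusted p under 0.05 regardless of size, Bmp4, Bmper and Bmpr2 passed, against 16.2% of all probesets.

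The stretches directly upstream of the RefSeq transcription start of these 3 genes are printed because their transcripts gave the smallest p-values among the members, 2 lower and 1 higher with C5a. They are 250 bases long, run 5′ to 3′ on the strand of the gene and come from the RefSeq promoter table of build GRCm38.p6, in which 7 of the 10 genes were found (all but Bmp2, Bmp3 and Nog). The Bmp4 stretch lies at chr14:46390670-46390919 on the minus strand, that of Bmper at chr9:23222826-23223075 on the plus strand and that of Bmpr2 at chr1:59764029-59764278 on the plus strand. Capitals mark matches to the motifs listed after the sequences.
Bmp4: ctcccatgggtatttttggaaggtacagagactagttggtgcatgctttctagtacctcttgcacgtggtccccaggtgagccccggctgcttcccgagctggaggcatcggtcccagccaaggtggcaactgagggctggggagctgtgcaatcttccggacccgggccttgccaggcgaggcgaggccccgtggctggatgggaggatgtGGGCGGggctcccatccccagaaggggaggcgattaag
Bmper: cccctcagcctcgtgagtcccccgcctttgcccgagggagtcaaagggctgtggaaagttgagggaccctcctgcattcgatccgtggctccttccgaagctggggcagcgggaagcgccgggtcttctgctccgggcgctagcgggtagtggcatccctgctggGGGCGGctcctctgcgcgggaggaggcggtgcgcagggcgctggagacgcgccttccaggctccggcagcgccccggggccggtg
Bmpr2: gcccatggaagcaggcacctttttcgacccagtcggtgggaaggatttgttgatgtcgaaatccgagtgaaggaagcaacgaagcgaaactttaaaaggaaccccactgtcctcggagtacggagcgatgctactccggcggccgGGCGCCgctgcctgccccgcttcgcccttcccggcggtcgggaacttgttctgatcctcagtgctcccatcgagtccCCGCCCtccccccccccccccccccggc

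On both strands the stretches were searched for the TATA box (TATAAA), the GC box (GGGCGG), the CCAAT box (CCAAT), the AP-1 site (TGACTCA), the cAMP response element (TGACGTCA), a GC-rich BMP-responsive motif (GGCGCC) and the palindromic SMAD element (GTCTAGAC). The Bmp4 stretch held 1 GC box that begins 38 bases before the start, and the Bmper stretch held 1 that begins 85 bases before it. The Bmpr2 stretch held 1 GC box, read on the opposite strand, at 28 bases before the start and 1 BMP-responsive motif at 105 bases. A GC box was present in each of the 7 stretches and in 32.7% of 32851 upstream stretches in the table. The BMP-responsive motif occurred in Bmpr1a, Bmpr2, Grem1 and Chrd, and in 9.59% of all stretches. A CCAAT box was found in Bmpr1a and Grem1 and in 33.8% of all stretches. No AP-1 site, cAMP response element, TATA box or palindromic SMAD element matched in any of the 7, against 4.46%, 1.55%, 12.4% and 0.167% of all stretches. The stretches of the 7 genes were 63.2% to 78.8% G and C, and the median over the table was 52.4%. These matches describe letters in a window and were not linked to binding.

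Bmp4 (probeset 10419261) measured 10.66, 10.65 and 9.92 in the unstimulated cultures of mice 2, 4 and 5 and 8.69, 9.23 and 8.59 in their C5a cultures. All C5a values lay below all unstimulated values, and the differences within the 3 mice were -1.97, -1.42 and -1.33 in the same order. The group means were 10.41 ± 0.43 and 8.84 ± 0.35 (SD, n = 3 each). The log2 fold change was -1.57 (standard error 0.15, adjusted p = 0.0796 from limma). By size this was the 27th strongest decrease among 19938 genes. Bmp4 had an adjusted p of 0.0205 where the fit was limited to the 21789 probesets that name 1 gene, of which 2.19% were called lower, and of 0.0286 where only probesets above the 40th percentile of mean value were kept, of which 1.04% were called lower. In a mixed culture fewer cells that make a transcript and less of it per cell cannot be told apart.

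The other ligands did not differ past either threshold. Bmp2, a potent inducer of bone formation closely related to Bmp4, measured 5.09, 6.33 and 4.81 without and 5.66, 6.24 and 5.10 with C5a in mice 2, 4 and 5. Its log2 fold change was 0.26 (95% interval -0.11 to 0.62, adjusted p = 0.485), and the change differed in sign between the mice. Bmp3, which counteracts osteogenic BMPs and is made by mature bone cells, had -0.10 (95% interval -0.55 to 0.35), with values between 6.41 and 7.22 on the 6 arrays. Bmp6, which also controls hepcidin and iron balance in the liver, measured 6.60, 6.60 and 6.53 without and 6.72, 6.74 and 6.89 with C5a. The groups of Bmp6 did not overlap, yet the difference was 0.21 (95% interval -0.003244 to 0.42, adjusted p = 0.317 from limma), a 1.16-fold difference. Without the mouse as a block Bmp6 passed the unadjusted threshold, still short of the fold threshold (adjusted p = 0.361). Its interval with the block leaves out a change of the signal as large as 1.5-fold, but its values lay not far above the array medians and may hold little specific signal. The interval of Bmp2 includes a 1.5-fold increase, so that such a change was not resolved with 3 mice. In mice 2 and 5 the values of Bmp2 lay below the array medians in both cultures and may hold little specific signal.

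**Figure D1:**
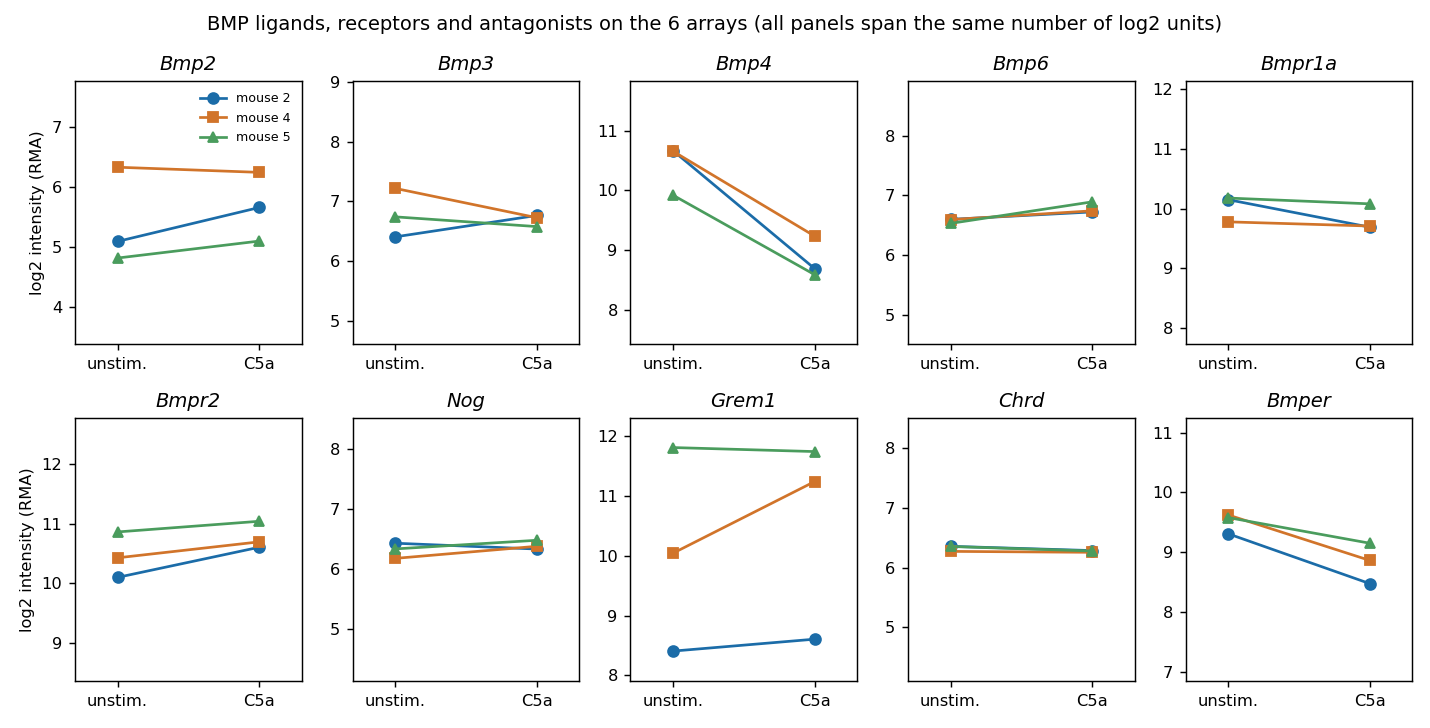
Log2 intensity (vertical axis, RMA) of the 10 genes in the unstimulated and the C5a culture of each mouse, with a line joining the 2 cultures of a mouse and circles, squares and triangles for mice 2, 4 and 5. The lines of Bmp4 and Bmper slope down in all 3 mice, as do, by less on average, those of Bmpr1a and Chrd. The lines of Grem1 lie far apart, from about 8.41 in mouse 2 to 11.81 in mouse 5 without C5a.

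Among receptors, Bmpr2, which encodes the type II receptor for BMPs, measured 10.10, 10.43 and 10.86 without and 10.61, 10.70 and 11.04 with C5a in mice 2, 4 and 5. It was higher in 3 of 3 mice, by 0.50, 0.27 and 0.18, while the ranges of the groups overlapped because the mice stood at different levels. The log2 fold change was 0.32 (standard error 0.09, adjusted p = 0.200 from limma), a 1.25-fold difference below the fold threshold. Bmpr2 passed the unadjusted p threshold with the mouse as a block but not without it (adjusted p = 0.734 without the block, from limma). Bmpr1a, the type I receptor that carries much of the BMP signal in osteoblasts, was lower in 3 of 3 mice, with differences of -0.46, -0.07 and -0.10. Its values were 10.15, 9.78 and 10.18 without and 9.69, 9.71 and 10.08 with C5a, so that the groups overlapped, and the means were 10.03 ± 0.22 and 9.82 ± 0.22 (SD, n = 3 each). This difference of -0.21 did not pass (95% interval -0.48 to 0.06, adjusted p = 0.442).

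Bmper (probeset 10583870) measured 9.31, 9.62 and 9.58 in unstimulated cultures and 8.47, 8.86 and 9.15 with C5a. Every C5a value lay below every unstimulated one, and the differences within mice 2, 4 and 5 were -0.83, -0.76 and -0.43. The means were 9.50 ± 0.17 and 8.83 ± 0.34 (SD, n = 3 each). The log2 fold change was -0.67 (standard error 0.10, adjusted p = 0.104 from limma). The adjusted p was 0.0380 over probesets naming 1 gene and 0.0541 above the 40th percentile.

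The 3 classical antagonists did not pass either threshold. Nog, whose product noggin binds BMP2 and BMP4 with high affinity, measured 6.43, 6.18 and 6.34 without and 6.34, 6.38 and 6.48 with C5a (log2 fold change 0.08, 95% interval -0.15 to 0.31). Chrd, encoding chordin, stayed between 6.25 and 6.35 on all arrays (log2 fold change -0.05, 95% interval -0.23 to 0.12). For both genes the interval excludes a 1.5-fold change of the signal in either direction. Their values lay not far above the array medians and may hold little specific signal, so a change of the transcript is not excluded. Grem1, whose product gremlin 1 binds BMP2, BMP4 and BMP7, measured 8.41, 10.04 and 11.81 without and 8.60, 11.24 and 11.74 with C5a. The log2 fold change was 0.44 (95% interval -0.23 to 1.12, adjusted p = 0.520). It came mostly from mouse 4, where Grem1 was higher by 1.20, against 0.20 in mouse 2 and -0.07 in mouse 5. Without mouse 4 the value was 0.07.

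**Figure D2:**
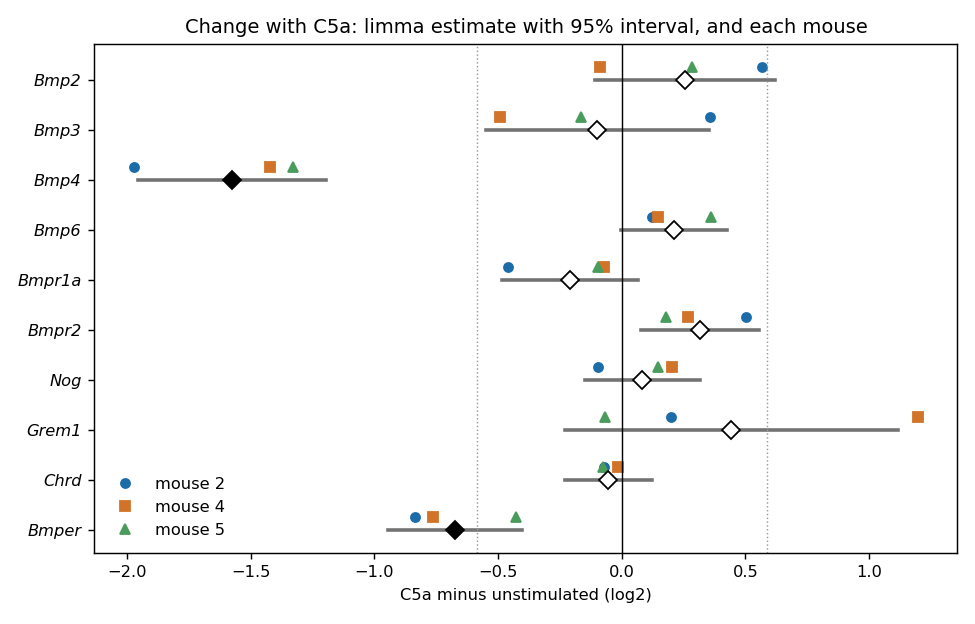
Difference between C5a and unstimulated cultures (horizontal axis, log2) for each gene. Diamonds are limma estimates with the mouse as a block, filled where the thresholds of the methods were passed, grey bars are 95% intervals, coloured symbols are the 3 mice, and dotted lines mark a 1.5-fold change. Bmp4 at -1.57 and Bmper at -0.67 lie left of the dotted line.

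Counted over the 10 genes, 5 differences were above and 5 below 0, with a median of 0.01, and the median over all probesets was 0.01. The groups did not overlap for 3 of the 10 genes (Bmp4, Bmp6 and Bmper) and for 15.2% of all probesets. The direction was the same in all mice for 6 of the 10 genes and for 36% of all probesets.

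For 7 of the 10 genes, all but Bmp4, Bmp6 and Bmper, the range between the mean values of the mice was wider than the difference with C5a. This sets a range over 3 means against 1 difference, so genes without any change can meet it, and the share over all probesets was not computed. For Nog and Chrd both were small, with ranges of 0.13 and 0.06 and differences of 0.08 and -0.05. A limma F test of the mouse terms in the same fit called Grem1 alone of the 10 at an adjusted p under 0.05 (adjusted p = 0.0311), against 2.5% of all probesets. The call was lost without mouse 2 (adjusted p = 0.295) or mouse 5 (adjusted p = 0.153). Averaged over both cultures, Grem1 stood at 8.50, 10.64 and 11.77 in mice 2, 4 and 5, a range of 3.27 log2 units. Bmp2 came next, with 5.37, 6.29 and 4.95 in mice 2, 4 and 5 (adjusted p = 0.0593), and passed above the 40th percentile (adjusted p = 0.0242) and over probesets naming 1 gene (adjusted p = 0.0184). For Bmp4 the means were 9.68, 9.94 and 9.26, a range of 0.69 that is smaller than its difference with C5a, and for Bmp6, Nog and Chrd the range between mice was 0.13 or less.

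Of 68 other genes of the pathway 8 were called between mice, against 2.5% of all probesets, and these 8 did not share an order. Bmp5, Tll1 and Sp7 were highest in mouse 4, with 9.09, 7.59 and 8.49 there. Eng and Crim1 were highest in mouse 5, as was Nbl1, whereas Rgma and Htra1 were highest in mouse 2. Eng, Crim1, Rgma, Htra1 and Sp7 are named after their values were seen. Markers of other cells moved with the mice too. Averaged over 18 macrophage and osteoclast markers, the arrays of mice 2 and 4 had 8.59 to 9.11 and those of mouse 5 had 6.27 to 6.42. Of the 18, 10 were called between mice, against 2.5% of all probesets. Lyz2 was 12.71 to 13.14 in mice 2 and 4 and 8.93 to 9.09 in mouse 5. Cd68 was 10.79 to 11.62 in mice 2 and 4 and 6.51 to 6.78 in mouse 5, whereas Ctsk was 10.35 to 10.94 on all arrays. Averaged over 10 measured osteoblast markers, of which 6 were called, the arrays of mouse 2 had 9.78 to 9.86, those of mouse 4 had 10.33 to 10.45 and those of mouse 5 had 8.77 to 8.87. Their part in the differences of Grem1 and Bmp2 was not tested.

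**Figure D3:**
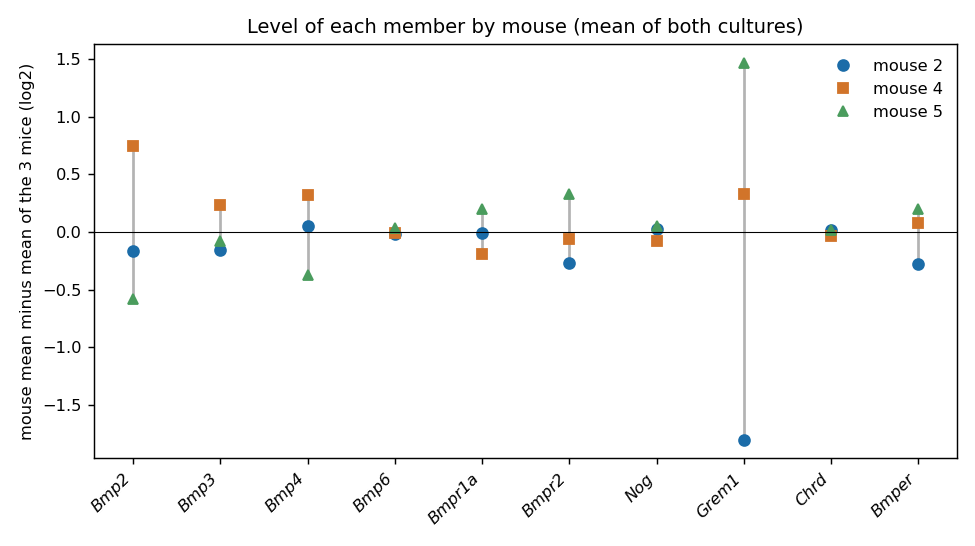
Mean of both cultures of each mouse minus the mean of the 3 mice (vertical axis, log2) for each gene, with circles, squares and triangles for mice 2, 4 and 5 and grey lines spanning the 3. Grem1 spans 3.27 log2 units and Bmp2 1.33, whereas Bmp6 and Chrd lie near 0.

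The rest of the pathway was described with lists of other ligands, receptors, antagonists, SMAD components and target genes, with 68 further genes measured, 1 probeset each. Of these, 9 were higher and 4 lower at the thresholds of the methods, against 1.71% and 1.57% of all probesets. Without the mouse as a block 8 were higher and 1 lower, against 523 and 400 of all 35556 probesets. None of the 68 passed after adjustment over all 35556 probesets. In that fit Atoh8 and Smurf2 had smaller adjusted p-values than Bmp4 (0.0704 and 0.0772 against 0.0796 from limma). Whether any of the 68 passed in the fits to fewer probesets, given above for Bmp4 and Bmper, was not examined. The median log2 fold change of the 68 was 0.04.

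None of 10 other BMP and GDF ligands was called. Bmp5, a ligand of cartilage and early bone, came nearest with -0.37 (standard error 0.10, adjusted p = 0.192) and was lower in 3 of 3 mice. Gdf5, which acts in joints, had 0.13 (95% interval -0.04 to 0.31).

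Of 11 other receptors and co-receptors 1 was higher and 1 lower, against 1.71% and 1.57% of all probesets. Bmpr1b, a type I receptor known from cartilage and limb development, measured 5.79, 5.58 and 5.70 without C5a, below the median of the arrays, and 8.16, 6.68 and 6.59 with it. The groups did not overlap, and the increase was largest in mouse 2. The log2 fold change was 1.45 (standard error 0.31, adjusted p = 0.135 from limma), a 2.74-fold difference. Acvr1, encoding the type I receptor ALK2, was higher in 3 of 3 mice by 0.55 (standard error 0.09, adjusted p = 0.110), which is 1.47-fold and short of the fold threshold. Acvr2a, a type II receptor shared with activins, had -0.61 (standard error 0.19, adjusted p = 0.232) and passed with the mouse as a block but not without it.

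Of 18 measured antagonists and modulators outside the members 1 was higher and 0 lower, against 1.71% and 1.57% of all probesets. Fstl3, a follistatin-like protein that binds activins, had 9.51, 9.66 and 9.77 without and 10.97, 9.87 and 10.42 with C5a. The groups did not overlap, and the estimate was 0.78 (standard error 0.25, adjusted p = 0.233). Nbl1, a relative of gremlin, had 0.47 (standard error 0.08, adjusted p = 0.114), higher in 3 of 3 mice and below the fold threshold.

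Of 17 components of the SMAD relay, 5 were higher and 1 lower at the thresholds of the methods, against 1.71% and 1.57% of all probesets. The 5 were Smad6, Smad7, Smurf1, Smurf2 and Skil, of which Smad6, Smurf1 and Skil are named after their values were seen. Smad6 and Smad7 are inhibitory SMADs, Smurf1 and Smurf2 are ubiquitin ligases that act on SMADs and receptors, and Skil encodes a corepressor. Other negative regulators in the list did not follow them. Ctdsp1, a phosphatase that acts on SMADs, had -0.41 (standard error 0.07, adjusted p = 0.110), lower in 3 of 3 mice and below the fold threshold. Ski, a relative of Skil, had 0.22 (95% interval -0.06 to 0.49), and the phosphatase gene Ppm1a had a 95% interval of -0.18 to 0.17, both named after their values were seen. Smad7 measured 7.03, 7.83 and 7.84 without and 8.33, 8.44 and 9.08 with C5a. The groups did not overlap, and the estimate was 1.05 (standard error 0.16, adjusted p = 0.102). Smurf2 had 0.87 (standard error 0.08, adjusted p = 0.0772). The lower one was Tob1, which restrains BMP-activated SMADs in osteoblasts, with -0.66 (standard error 0.09, adjusted p = 0.0984). Of the signal-carrying SMADs, also named after their values were seen, Smad1, Smad5 and Smad4 had 0.01, -0.01 and 0.14. Smad9 had 0.37, below the fold threshold but higher in 3 of 3 mice (95% interval 0.08 to 0.65, adjusted p = 0.214).

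Target genes of BMP signals went both ways. Of 16 measured, 4 were higher and 2 lower, against 1.71% and 1.57% of all probesets. Smad6 and Smad7 count in this list too. Atoh8, a transcription factor gene that responds to BMPs, measured 8.41, 8.69 and 8.73 without and 9.84, 9.93 and 10.21 with C5a. The groups did not overlap, and the estimate was 1.39 (standard error 0.08, adjusted p = 0.0704). Dlx2, a homeobox gene, had 0.61 (standard error 0.10, adjusted p = 0.111). Id4, encoding an inhibitor of DNA binding, measured 7.94, 9.32 and 9.87 without and 7.06, 8.50 and 8.24 with C5a. The groups overlapped, and the estimate was -1.11 (standard error 0.18, adjusted p = 0.111). It was lower in 3 of 3 mice. Id2 had -0.58 (95% interval -1.05 to -0.11, adjusted p = 0.224), also lower in 3 of 3 mice and just below the fold threshold. The relatives Id1 and Id3, like Id2 named after their values were seen, had -0.02 (95% interval -0.32 to 0.29) and 0.01 (95% interval -0.29 to 0.31). Without the mouse as a block 3 targets were higher and 0 lower, since Id4, Dlx2 and Dlx5, the last named after its values were seen, did not pass.

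**Figure D4:**
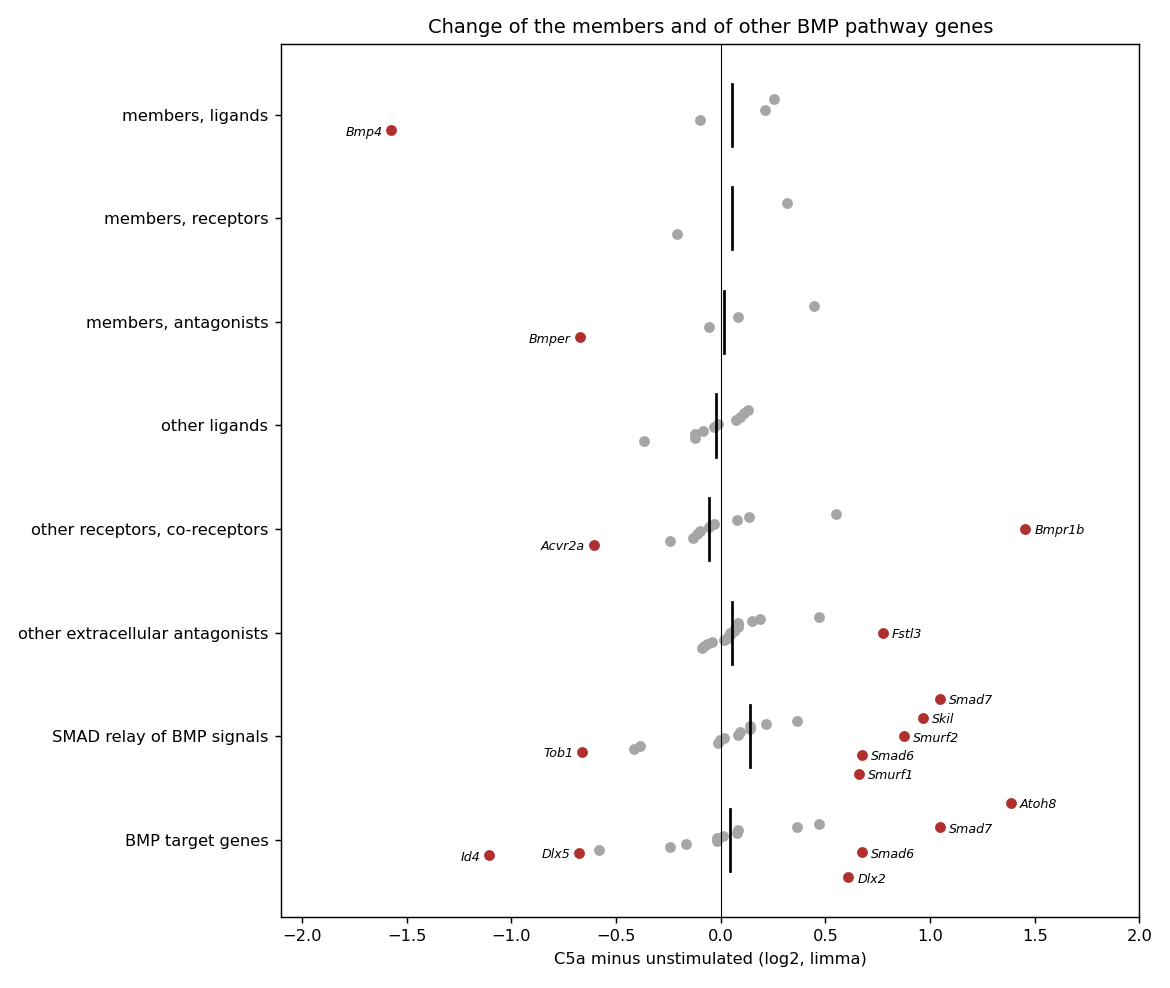
Log2 fold change with C5a (horizontal axis) of the members by role and of the other pathway genes by list, 1 point per gene, with red points and names for genes that passed the thresholds of the methods and a black bar at the median of each list. Bmp4 lies at -1.57 and Bmpr1b at 1.45, and in the SMAD relay list 5 genes are marked to the right of 0 and Tob1 to the left.

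As a check of the label, Col1a1 and Sparc, abundant in osteoblasts, lay between 13.32 and 14.20 on all arrays, and Mepe, a marker of osteocytes named after its values were seen, was between 4.49 and 4.71, below the array medians. Other osteoblast markers, also named after their values were seen, differed between mice. Ibsp, encoding bone sialoprotein, was 11.26 to 12.88 in mice 2 and 4 and 7.02 to 7.56 in mouse 5. Sp7, encoding the transcription factor osterix, was 8.26 and 8.73 in mouse 4 and 6.16 to 6.64 in mice 2 and 5. Phex was 8.91 and 8.56 in mouse 2, 7.09 and 6.30 in mouse 4 and 5.44 and 5.32 in mouse 5. Dmp1 was 6.44 and 7.12 in mouse 2, 9.20 and 8.87 in mouse 4 and 6.01 and 6.15 in mouse 5. With C5a, 0 of the 10 osteoblast markers and 0 of the 18 macrophage and osteoclast markers were called in either direction, and 0 of 10 endothelial markers were. Of the macrophage and osteoclast markers 14 of 18 were below 0, with medians of -0.32, -0.40 and 0.14 in mice 2, 4 and 5. Of the osteoblast markers 7 of 10 were below 0, with Ibsp at -0.43 (adjusted p = 0.131 from limma). Among all named genes 10393 of 19938 were below 0. Among 9 adipocyte and 10 chondrocyte markers 1 each was lower, against 1.57% of all probesets. Of 10 smooth muscle and pericyte markers 5 were higher and 0 lower, against 1.71% and 1.57% of all probesets. The list means were 7.87 to 8.93 without and 8.76 to 9.06 with C5a. The median difference of this list was 0.73, 0.34 and 0.11 in mice 2, 4 and 5. The part of these cell markers in the differences of Bmp4, Bmper and the pathway genes was not tested.

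Over the 6 arrays the genes most like Bmp4, by Pearson's r among 9968 genes above the median level, were Samd9l, Mknk1 and Neu1 (r = 0.997, 0.995 and 0.994). They had log2 fold changes of -0.97, -0.77 and -0.66. Those most like Bmpr2 were Mast4, Axl and Map1b (r = 0.997, 0.995 and 0.992), with 0.44, 0.46 and 0.57. These correlations are over arrays that share mice and groups and are given as a description.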

How the data were processed

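RNA of 6 cultures was hybridised to Affymetrix Mouse Gene 1.0 ST arrays, 1 per culture. The authors used Affymetrix Expression Console and BRB-ArrayTools and deposited log2 intensity summaries per probeset by RMA. Versions, and whether other arrays were normalized with these, are not given in the sources used here.

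From these values 35556 probesets were tested by limma 3.58.1 in R 4.3.3 (lmFit, eBayes) with treatment and mouse as terms. Adjustment was by Benjamini-Hochberg. The titles give both groups the numbers 2, 4 and 5, and the series design states that the cells of each mouse were divided. Deviations from group means correlated at 0.495 to 0.684 within a mouse and at -0.446 to -0.0353 between mice. Steps were checked on simulated arrays. The number of arrays limits the precision.

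Probesets were named through the platform annotation, in which 21789 name 1 gene. For a gene with several, the highest mean was used. The members and lists were chosen with earlier results of these data known. The text names the members, by p up to 4 genes of each pathway list, by level up to 4 of each marker list, and the 3 genes most like the leading member in each direction. Alternatives were the methods' t-test and its paired form, a fit without block, robust estimation with a variance trend, probesets above the 40th percentile, those that name 1 gene, quantile normalization, centring on the median and leaving out each mouse.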

Additional observations from a re-analysis of the deposited data

How the results depend on the processing

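Bmp4 and Bmper passed the thresholds of the methods under each of 11 alternatives, with log2 fold changes of -1.70 to -1.37 and -0.80 to -0.59, and no other member did. Leaving out both arrays of 1 mouse gave 2 called members in each case. Of 110 values of single members under the alternatives, 1 turned in sign, Bmp3, which had 0.10 without mouse 4 (-0.33 to 0.10 with each mouse left out), and the cause was not tested. A single array could not be left out apart from its mouse, since its partner then carries no paired difference, and the choice between probesets could not be varied, since each member has 1.

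Without the replicate block 923 in place of 1166 probesets passed the thresholds of the methods and 2 members did. After adjustment 5 in place of 4 probesets passed without the block, and no member. Bmp4 then had an adjusted p of 0.151 and Bmper of 0.264. With the methods' t-test 665 passed at the thresholds of the methods and 0 after adjustment, and with its paired form 517 and 0. Leaving out 1 mouse gave 885 to 1754 at the thresholds of the methods, with 1754 without mouse 4. It gave 0 to 3 after adjustment, with 0 without mouse 2 or mouse 5.

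The adjusted threshold depended on which probesets were tested. Above the 40th percentile 373 passed, and among probesets naming 1 gene 795 passed, including 1 and 2 members (Bmp4, and Bmp4 with Bmper). These fits hold fewer probesets and estimate the common variance anew. In the same settings the test between mice called 1349 and 1522 probesets in place of 888, and 2 members, Grem1 and Bmp2 (adjusted p of Bmp2 0.0242 and 0.0184). Leaving out 1 mouse gave 37 to 621 probesets and 0 to 1 members, and Grem1 kept its call only without mouse 4.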
